A study of Arabidopsis thaliana with 35 samples.

Results

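The comparison described here set seedlings that overproduced *EPFL4* against wild type (WT) after the same 3 h on estradiol, over all genes. It used 8 of the 35 libraries of the series, namely 4 of the XVE:EPFL4 line and 4 of WT, chosen by their labels alone. All were made from 7-d-old Arabidopsis seedlings moved to plates with 17-β estradiol, labelled 5 mM, so the treatment, the time and the age were shared by both groups. By its label the XVE:EPFL4 line carries an estradiol-inducible *EPFL4* transgene, and the label names no mutant background. WT is labelled without XVE, so the presence of the XVE protein and of the transgene cannot be told apart from the product of *EPFL4*. The promoter that drives XVE in this line and the number of independent transformants are not given in the sources used here. The other genotype of the series, an *er* mutant with inducible *ER*, was used to set the scale of CPM, the counts of a gene scaled to library size. It also entered an alternative fit of all 35 libraries and a search for the library closest to each 3 h library. Libraries of XVE:EPFL4 and WT taken uninduced, and after 8 h of estradiol, were used for comparison.

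XVE is a chimeric transcription factor that moves into the nucleus when it binds estradiol and then activates the gene placed behind its operator. *EPFL4* encodes a small secreted cysteine-rich peptide of the EPIDERMAL PATTERNING FACTOR-LIKE family. With its relative *EPFL6*, it is known as a ligand of the receptor kinase ERECTA (ER) in the stem, where the peptides are made in the endodermis and perceived in the phloem. ER and its homologues ERL1 and ERL2 act with coreceptors of the SERK family and, in the stomatal lineage, with the receptor-like protein TMM, and pass the signal to a MAP kinase cascade that starts with YDA.

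*EPFL4* (AT4G14723, chromosome 4, 8439899 to 8440901 in TAIR10.1) was measured first because it checks the labels. It had 981, 1286, 1179 and 1724 CPM in XVE:EPFL4 at 3 h, against 0.869, 0.0542, 0.665 and 0.740 CPM in WT at 3 h. The WT values rest on 16, 1, 13 and 13 reads. Every XVE:EPFL4 library was far above every WT library, and no WT library reached 1 CPM. The fitted log2 fold change was 11.11 ± 0.40 (SE), with an adjusted p = 2.80e-06 by the quasi-likelihood test of edgeR, and the exact two-sided permutation test gave p = 0.0286, the smallest that 4 against 4 libraries allow. Without induction *EPFL4* was already higher in XVE:EPFL4, at 3.40, 2.7, 1.36 and 2.4 CPM, against 0.755, 0.617, 0.540 and 0.795 CPM in WT (log2 fold change 1.86, adjusted p = 0.00227). At 8 h it stood at 1999, 1223, 2972 and 810.0 CPM in XVE:EPFL4, against 0.505, 1.11, 0.723 and 0.721 CPM in WT. The counts do not separate transcripts of the transgene and of the native gene.

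**Figure D1:**
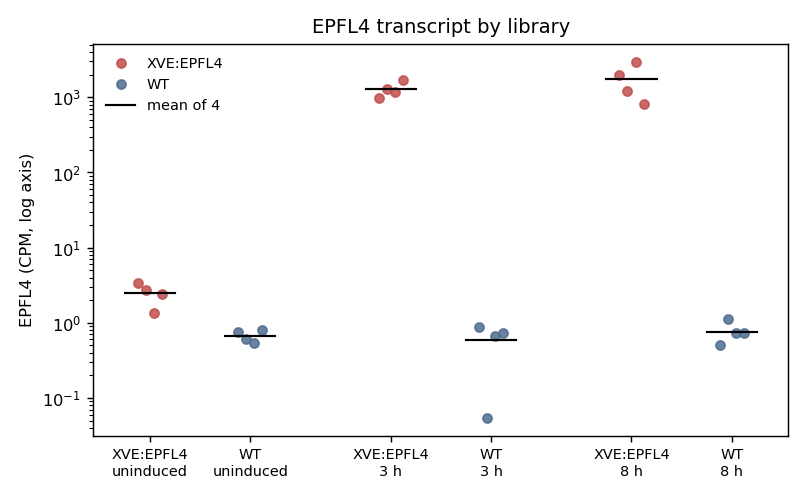
*EPFL4* in each library, in CPM on a log axis, for XVE:EPFL4 (left of each pair) and WT, uninduced and at 3 h and 8 h; points are libraries and lines are means of 4. At 3 h the 4 XVE:EPFL4 libraries lie between 981 and 1724 CPM, and the 4 WT libraries lie between 0.0542 and 0.869 CPM.

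The other peptides and the receptors were not called with all 8 libraries. *EPFL5*, the closest relative of *EPFL4*, was at 1.5, 0.832, 1.01 and 1.36 CPM in XVE:EPFL4 and at 1.79, 1.35, 1.07 and 2.33 CPM in WT, and *EPFL6* was at 2.88, 2.16, 1.77 and 1.82 CPM in XVE:EPFL4 and at 1.57, 1.35, 2.35 and 2.56 CPM in WT. Both pairs of groups overlapped. *ER* was at 106, 98.0, 101 and 105 CPM in XVE:EPFL4, against 105, 81.4, 102 and 95.7 CPM in WT (log2 fold change 0.10 ± 0.09). *ERL1* had a log2 fold change of 0.22 ± 0.16, *ERL2* of -0.23 ± 0.14 and *TMM* of -0.08 ± 0.10. With WT replicate 4 left out, *ERL2* was lower (-0.37, adjusted p = 0.00367). Exact permutation p-values for these 6 genes ran from 0.229 to 0.571, or 0.44 to 0.571 after Benjamini-Hochberg adjustment over the 7 genes, and that of *EPFL4* was 0.2 after this adjustment.

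The libraries did not spread evenly. Total counts were 19556475 to 23744384 in XVE:EPFL4 and 18356943 to 20334386 in WT at 3 h. The first principal component of log2 CPM took 38.3% of the variance and set WT replicate 4, at 66.8, apart from the 7 other libraries, at -25.1 to 4.64. The second, with 29.5%, held all XVE:EPFL4 libraries at -26.8 to -20.4 and all WT libraries at 10.9 to 31.0. WT replicate 4 correlated at r = 0.960 at best with another WT library and at r = 0.967 at best with an XVE:EPFL4 library, whereas XVE:EPFL4 libraries correlated at 0.990 or more with their closest fellow. Over all 35 libraries of the series, its closest was replicate 4 of the *er* line with inducible *ER* at 3 h (r = 0.969). Whether these libraries shared a batch or handling was not tested. The sources used here give no batch, date or other label that separates this library, so the main results below are given with all 8 libraries and also without WT replicate 4.

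Of 19863 genes tested, 562 were higher and 651 lower in XVE:EPFL4 (adjusted p under 0.05, edgeR), which is 2.83% and 3.28% of the genes tested and 6.11% together. The median log2 fold change of all genes was -0.01. Only 92 of the 1213 changed at least 2-fold. The count depended on single libraries. Without WT replicate 4 it was 5243 genes (2289 higher and 2954 lower, or 11.4% and 14.8% of 20024 genes tested), and this set included all 1213. Without WT replicate 2 it was 19 and without WT replicate 3 it was 26. Leaving out XVE:EPFL4 replicate 1, 2, 3 or 4 left 12, 14, 12 or 13 genes. Leaving out WT replicate 1 gave 1433. Once WT replicate 4 was out, leaving out a further library gave 3972 to 5687 genes, so no other library moved that count by more than 1.5 times. Genes with an unadjusted p under 0.05 numbered 4799 with all 8 libraries. Without any 1 XVE:EPFL4 replicate, or without WT replicate 2 or 3, they numbered 3646 to 3979. The unadjusted count thus fell far less than the number of calls.

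**Figure D2:**
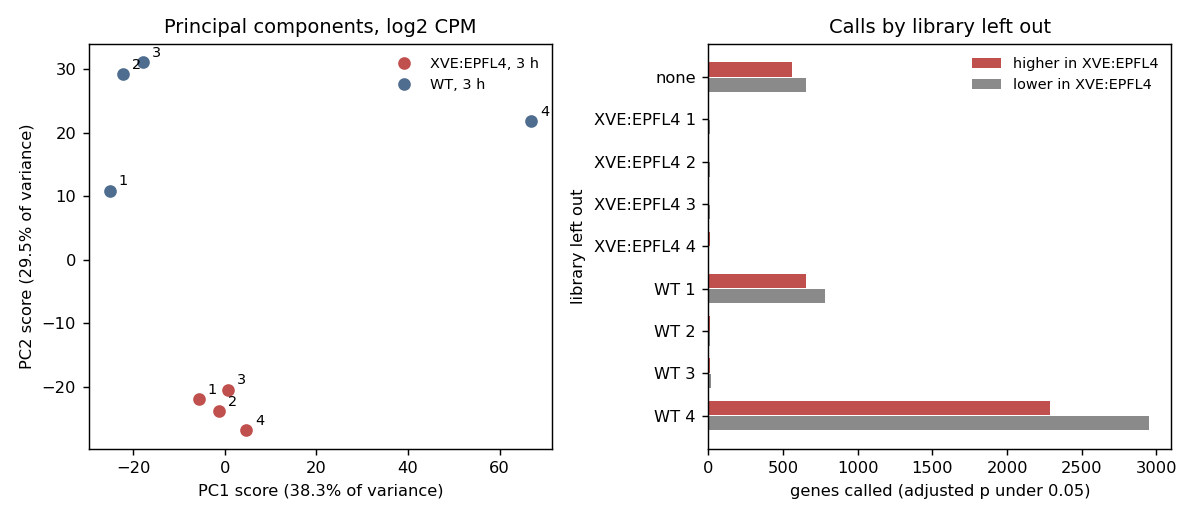
Left, scores of the 8 libraries at 3 h on the first and second principal components of log2 CPM, with replicate numbers; right, genes called higher and lower in XVE:EPFL4 (adjusted p under 0.05) with no library left out and with each library left out in turn. WT replicate 4 stands alone at 66.8 on the first component, and 5243 genes were called without it, against 12 to 1433 without any other library.

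*EPFL4* and 9 other genes were called in the full fit and in each of the 8 fits that left out a library. These 9 were singled out after their values were seen. The most abundant, *FBA5*, encodes a fructose-bisphosphate aldolase, an enzyme of glycolysis and the Calvin cycle. It was at 479, 425, 421 and 450.4 CPM in XVE:EPFL4, against 667, 710.1, 719 and 705 CPM in WT, and fell by 0.65 ± 0.07 on the log2 scale. The mannose-binding lectin gene AT1G52100 had 42.4, 50.0, 43.8 and 50.3 CPM in XVE:EPFL4, against 103, 132, 143 and 137 CPM in WT (log2 fold change -1.46 ± 0.11, adjusted p = 0.00213). It was lower without induction as well (-0.86, adjusted p = 1.19e-04), and by more at 3 h (interaction -0.61, adjusted p = 0.0417). The groups did not overlap in either gene, and WT replicate 4 lay within the range of the other WT libraries.

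The other genes that fell in every fit were a kinase gene of the MAP kinase kinase kinase family, a thionin, a prenyltransferase and a protein kinase. *MAPKKK14* was at 18.4, 16.7, 15.9 and 16.5 CPM in XVE:EPFL4, against 40.7, 35.2, 31.9 and 33.8 CPM in WT (-1.06 ± 0.09), and had a log2 fold change of 0.00 to 2 decimals without induction (adjusted p = 0.99). The difference between the 3 h and the uninduced log2 fold changes was itself called (-1.06, adjusted p = 0.00216). *THI2.2*, a small antimicrobial peptide gene, was at 43.5, 48.6, 46.5 and 47.9 CPM in XVE:EPFL4, against 80.8, 101, 105 and 108 CPM in WT (-1.08 ± 0.10), and its difference from the uninduced fold change was -1.01 (adjusted p = 0.00188). The test of this difference uses the 3 h libraries by which these genes and AT1G52100 were singled out, so it is no separate support. The *cis*-prenyltransferase gene *cPT4* (-1.14) and the kinase gene AT1G65190 (-0.78) were lower too. Of the 2, *cPT4* was also lower without induction (log2 fold change -0.57, adjusted p = 8.92e-04).

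Among the genes that rose in every fit, *WYR* encodes an inner centromere protein of the chromosomal passenger complex, which acts in mitosis. It was at 23.1, 22.4, 21.9 and 23.54 CPM in XVE:EPFL4, against 14.4, 12.8, 11.7 and 13.3 CPM in WT (0.80 ± 0.08, adjusted p = 0.00576). *XTR6*, a xyloglucan endotransglycosylase that remodels the cell wall, was at 20.9, 14.4, 18.18 and 19.1 CPM in XVE:EPFL4, against 8.47, 7.10, 6.55 and 8.42 CPM in WT (1.26 ± 0.14). The TIR-NBS-LRR gene AT4G19520, of the family of intracellular immune receptors, was at 54.7, 51.8, 54.3 and 64.4 CPM in XVE:EPFL4, against 21.9, 28.1, 29.2 and 28.4 CPM in WT (1.07 ± 0.11). It was also higher without induction (1.76, adjusted p = 2.42e-05). *FBA5*, *cPT4* and *WYR* each overlap another annotated gene, as do *KN*, *CDKB2;1*, *CDKB1;1*, *CDKB1;2*, *ABI1*, *WRKY53*, *WRKY33*, *DREB2A*, *LNK2*, *BZR2*, *ARR8*, *PIF7*, *MPK3*, *SERK1*, *SERK2* and *BAK1* among the genes named further on, and since no strand setting is stated for the counting, reads of such pairs cannot be told apart.

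Among the called genes whose groups did not overlap, the 10 largest rises were *EPFL4* and 9 genes of lower abundance. *SULTR1;1*, a high-affinity sulphate transporter of the root, was at 6.38, 9.07, 6.71 and 6.06 CPM in XVE:EPFL4, against 3.04, 2.93, 2.201 and 1.08 CPM in WT (log2 fold change 1.61 ± 0.28). *LBD41*, a LOB-domain transcription factor gene known for induction under low oxygen, was at 29.1, 21.6, 24.2 and 29.5 CPM in XVE:EPFL4, against 8.79, 6.88, 9.01 and 17.8 CPM in WT (1.305 ± 0.26). *AGL24*, a MADS-box gene that promotes flowering, was at 4.80, 4.87, 5.44 and 5.86 CPM in XVE:EPFL4, against 2.28, 2.17, 1.84 and 1.25 CPM in WT (1.48 ± 0.19). It was also called without induction (0.73, adjusted p = 0.00823), as was AT1G78410, a VQ-motif gene with a log2 fold change of 1.62 at 3 h. The lipid-transfer-type gene AT4G22517 (1.90), the CC-NBS-LRR gene AT1G51480 (1.63), the chitinase-family gene AT2G43600 (1.54), the peroxidase gene AT5G39580 (1.43) and AT1G21320 (1.36), a predicted nucleic acid binding protein gene, completed the set. AT4G22517 overlaps another annotated gene too.

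The 10 largest falls by the same rule were led by *CYP71A20*, a cytochrome P450 gene (-2.68), the uncharacterized gene AT3G01345 (-2.59) and *COR15A* (-2.51). *ICL*, isocitrate lyase of the glyoxylate cycle that turns seed lipid into sugar, was at 1.00, 1.62, 1.35 and 1.87 CPM in XVE:EPFL4, against 2.88, 5.69, 8.24 and 7.51 CPM in WT (-2.06 ± 0.33). *RD20*, a caleosin gene known for its response to drought and abscisic acid, was at 6.09, 3.95, 8.01 and 4.55 CPM in XVE:EPFL4, against 16.9, 26.0, 22.1 and 8.65 CPM in WT (-1.70 ± 0.33). The non-coding RNA AT2G06002 (-2.02), AT1G15010 (-1.93), AT5G15360 (-1.92), AT1G09500 (-1.72) and the glucosyltransferase gene *UGT73C1* (-1.65) made up the rest. AT1G15010 is annotated as a Mediator subunit and AT1G09500 as a Rossmann-fold protein. Of these 10, *ICL* (-2.10), AT2G06002 (-1.98), AT1G09500 (-1.48), *RD20* (-1.46) and *UGT73C1* (-1.69) were also called lower without induction, whereas *COR15A* and AT1G15010 were not, and their 3 h fold changes differed from the uninduced ones by the interaction test (-3.06, adjusted p = 0.0201, and -2.71, adjusted p = 0.00901). None of these rises and falls other than *EPFL4* was called in all 8 fits that left out a library.

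The list with the most members called was that of the mitotic cell cycle, with cyclins, mitotic kinases and cytokinesis proteins. Of 18 members tested, 7 were higher and 0 lower, 16 had groups that did not overlap with XVE:EPFL4 above WT, and the median log2 fold change was 0.56, against -0.01 for all genes. Over all genes 2.83% were called higher and 8.27% had XVE:EPFL4 above WT without overlap. With WT replicate 4 left out, 13 members were called higher and 0 lower, against 11.4% and 14.8% of all genes, and the median was 0.59. The number called was 8 without WT replicate 1, 1 (*KN*) without WT replicate 3, and 0 without WT replicate 2 or any 1 of the XVE:EPFL4 replicates. *KN*, the syntaxin of the cell plate, was at 21.3, 23.8, 23.2 and 24.2 CPM in XVE:EPFL4, against 15.6, 14.4, 9.52 and 15.2 CPM in WT (0.77 ± 0.14, adjusted p = 0.0217). *HIK*, a kinesin required for cytokinesis, was at 26.7, 28.9, 26.1 and 28.1 CPM in XVE:EPFL4, against 21.8, 19.7, 14.4 and 17.36 CPM in WT (0.59 ± 0.12). For both, the lowest XVE:EPFL4 library lay above the highest WT library.

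Of the mitotic kinases and cyclins, *CDKB2;1* was at 26.0, 24.8, 26.8 and 25.2 CPM in XVE:EPFL4, against 17.8, 16.0, 14.5 and 20.3 CPM in WT (0.59 ± 0.10, adjusted p = 0.0210). *CYCA1;1* was at 15.6, 15.9, 13.2 and 16.7 CPM in XVE:EPFL4, against 11.5, 10.8, 9.93 and 11.2 CPM in WT (0.50 ± 0.10). *CYCB1;1* (0.53), *CDKB1;1* (0.53) and *CDKB1;2* (0.68) were called as well. The D-type cyclins, which act at the entry into the cycle and not in mitosis, had log2 fold changes of 0.26 (*CYCD3;1*), 0.17 (*CYCD3;3*) and -0.05 (*CYCD3;2*), and none of the 3 passed the test.

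The same list differed between the genotypes without induction. In the uninduced libraries 13 of 18 members were called higher and 0 lower, against 5.93% of all genes called higher and 4.00% lower, and the median was 0.68. At 8 h the median was 0.40, all 18 members had a positive log2 fold change and 9 had groups that did not overlap, against 2.19% of all genes, although none was called. The interaction test called none of the 18 as different between the 3 h and the uninduced comparison, and the median of that difference was -0.11. The uninduced, 3 h and 8 h comparisons share no library. In seedlings sampled whole, more dividing cells and more transcript per cell cannot be told apart.

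**Figure D3:**
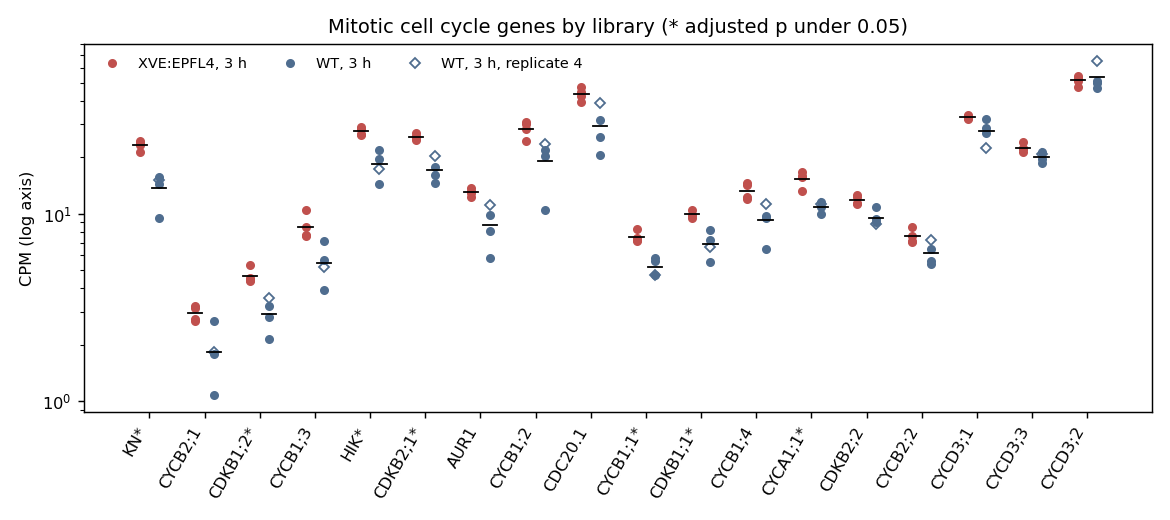
CPM of the 18 mitotic cell cycle genes tested, in each library at 3 h on a log axis, XVE:EPFL4 left of WT, ordered by log2 fold change; black lines are means of 4, open diamonds are WT replicate 4 and asterisks mark genes called. In 16 of the 18 genes all XVE:EPFL4 libraries lie above all WT libraries.

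Mitotic genes are known to carry the mitosis-specific activator element, whose core is AACGG, in their promoters, where it is bound by MYB transcription factors with R1R2R3 repeats. In windows of 250 bases before the annotated gene start, the core stood on either strand in 11 of 18 members, or 61.1%, and in 21.8% of 19780 windows of all genes tested. The windows of the members with the lowest adjusted p among those that hold the core are given 5′ to 3′ from TAIR10.1 (RefSeq), with the core, or CCGTT where it lies on the other strand, in capitals. They lie on the minus strand of chromosome 1, at chr1:2711001-2711250 for *KN*, chr1:16777353-16777602 for *CYCA1;1* and chr1:6324379-6324628 for *HIK*.
KN: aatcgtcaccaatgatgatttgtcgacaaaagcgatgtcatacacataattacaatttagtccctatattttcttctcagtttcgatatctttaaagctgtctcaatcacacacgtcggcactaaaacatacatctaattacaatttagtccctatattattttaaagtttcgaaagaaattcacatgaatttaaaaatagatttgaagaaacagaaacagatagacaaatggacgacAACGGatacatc
CYCA1;1: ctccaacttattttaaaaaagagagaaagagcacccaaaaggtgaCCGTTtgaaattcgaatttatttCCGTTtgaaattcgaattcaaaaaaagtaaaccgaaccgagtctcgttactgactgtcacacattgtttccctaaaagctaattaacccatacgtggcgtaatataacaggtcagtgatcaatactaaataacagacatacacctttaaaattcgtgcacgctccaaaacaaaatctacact
HIK: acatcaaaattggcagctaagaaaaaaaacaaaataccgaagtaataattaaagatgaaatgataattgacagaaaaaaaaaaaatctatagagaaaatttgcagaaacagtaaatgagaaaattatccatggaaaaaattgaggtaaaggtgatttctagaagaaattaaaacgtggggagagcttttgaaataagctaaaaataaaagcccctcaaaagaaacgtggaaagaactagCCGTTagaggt
The core stood 1 time in *KN*, 2 times in *CYCA1;1* and 1 time in *HIK*. *CDKB2;1*, the member with the lowest adjusted p, had 0 matches in its window, as had *CDKB1;1*, *CDKB1;2*, *CDC20.1*, *CYCB1;4*, *CYCD3;2* and *CYCD3;3*. A match of letters describes the window only.

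The abscisic acid response list held 14 genes tested, of which 5 were lower and 0 higher, against 3.28% of all genes called lower. Its median log2 fold change was -0.48. Abscisic acid is the hormone of drought and cold, and many of the listed genes encode protective hydrophilic proteins. *COR15A*, which protects chloroplast membranes in the cold, was at 23.56, 14.2, 24.7 and 13.03 CPM in XVE:EPFL4, against 87.6, 239.8, 62.1 and 43.4 CPM in WT (log2 fold change -2.51 ± 0.51, adjusted p = 0.0269). *RD29A* was at 39.5, 32.3, 35.9 and 27.5 CPM in XVE:EPFL4, against 85.2, 107, 57.2 and 47.9 CPM in WT (-1.13 ± 0.23). In both genes all XVE:EPFL4 libraries lay below all WT libraries, of which WT replicate 2 was the highest and WT replicate 4 the lowest. Of all genes tested, 8.45% had XVE:EPFL4 below WT without overlap, as had 4 of these 14.

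*KIN2*, a cold- and abscisic acid-inducible gene, was at 151, 147, 165 and 117 CPM in XVE:EPFL4, against 296, 398, 208 and 183 CPM in WT (-0.89 ± 0.22). The dehydrin gene *COR47* fell by 0.44 ± 0.11 on the log2 scale. *ABI1*, a phosphatase that restrains abscisic acid signalling, was at 53.0, 45.2, 50.8 and 50.8 CPM in XVE:EPFL4, against 88.5, 88.9, 87.2 and 50.5 CPM in WT, and here WT replicate 4 lay among the XVE:EPFL4 libraries. The 9 members not called included *NCED3*, of abscisic acid synthesis (-0.39), and *LTP3* and *LTP4*, which had positive values (0.56 and 0.93) that rest on XVE:EPFL4 replicate 1. Without WT replicate 4, 9 members were called lower and 0 higher, against 14.8% and 11.4% of all genes, with a median of -0.67. The number called was 2 without WT replicate 1, and 0 without WT replicate 2, WT replicate 3 or any 1 of the XVE:EPFL4 replicates. Without induction 3 members were higher and 4 lower, against 5.93% and 4.00% of all genes, with a median of -0.25. At 8 h the median was 0.30, with 0 called.

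**Figure D4:**
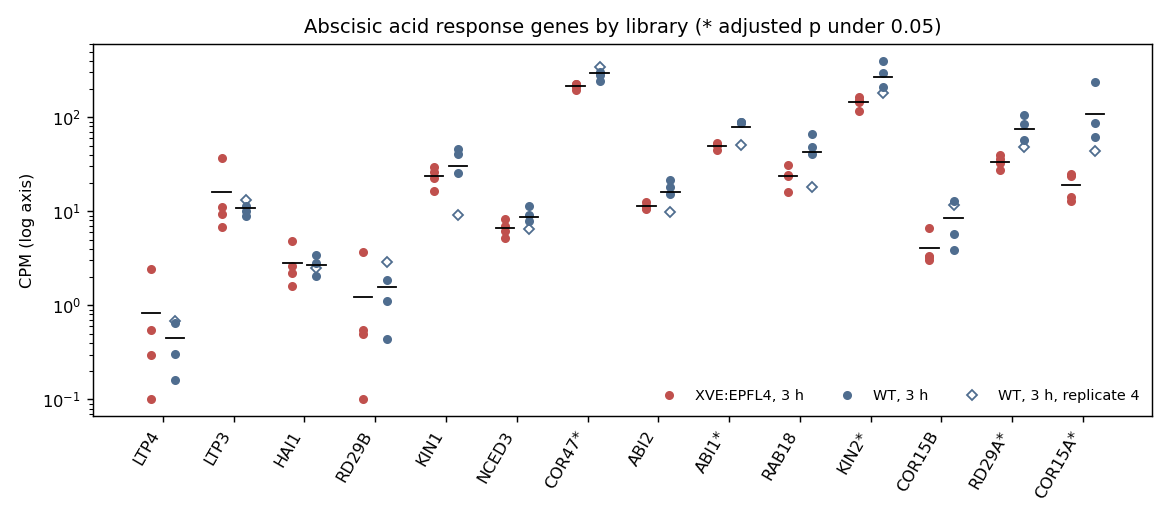
CPM of the 14 abscisic acid response genes tested, in each library at 3 h on a log axis, XVE:EPFL4 left of WT, ordered by log2 fold change; black lines are means of 4, open diamonds are WT replicate 4 and asterisks mark genes called. *COR15A* and *RD29A*, at the right, lie lower in all XVE:EPFL4 libraries (13.03 to 24.7 and 27.5 to 39.5 CPM) than in all WT libraries (43.4 to 239.8 and 47.9 to 107 CPM).

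Cold-responsive genes are known for the C-repeat, with the core CCGAC bound by CBF factors, and abscisic acid-responsive genes for an element with the core ACGTG. The windows before *COR15A* (minus strand, chr2:17712331-17712580) and *RD29A* (plus strand, chr5:21240467-21240716) are given because they are the members with the lowest adjusted p, with both cores, on either strand, in capitals.
COR15A: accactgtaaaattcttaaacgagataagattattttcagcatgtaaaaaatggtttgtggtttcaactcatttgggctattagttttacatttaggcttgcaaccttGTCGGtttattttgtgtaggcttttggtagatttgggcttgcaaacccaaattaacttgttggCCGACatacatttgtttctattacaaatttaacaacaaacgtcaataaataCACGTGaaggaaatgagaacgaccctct
RD29A: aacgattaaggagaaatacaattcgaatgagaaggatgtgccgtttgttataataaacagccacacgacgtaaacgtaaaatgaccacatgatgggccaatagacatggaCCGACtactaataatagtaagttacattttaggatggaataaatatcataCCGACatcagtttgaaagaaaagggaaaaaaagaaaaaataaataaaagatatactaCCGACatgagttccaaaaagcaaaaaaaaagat
The window of *COR15A* held CCGAC 2 times and ACGTG 2 times, these last as a single palindrome read on both strands, and that of *RD29A* held CCGAC 3 times and ACGTG 0 times. Of the other members called lower, *COR47* and *ABI1* had 0 matches of either core, and *KIN2* held CCGAC 0 times and ACGTG 1 time. Over the list, 3 of 14 windows held CCGAC (21.4%) and 5 of 14 held ACGTG (35.7%), against 12.8% and 23.8% of the windows of all genes tested.

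*CBF2*, which encodes one of the factors that bind the C-repeat, was among the 10 largest falls that were called only without WT replicate 4. It was at 1.17, 1.58, 1.01 and 1.57 CPM in XVE:EPFL4, against 17.97, 6.34, 3.58 and 0.683 CPM in WT. With all 8 libraries its log2 fold change was -2.41 (adjusted p = 0.0854), and without WT replicate 4 it was -2.80 (adjusted p = 7.72e-04). In uninduced seedlings *CBF2* was higher in XVE:EPFL4 (2.48, adjusted p = 1.24e-04), and the interaction test called the difference (-4.90, adjusted p = 0.00576).

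Of 16 A-type expansin genes tested, whose products loosen the cell wall, 3 were lower and 0 higher, against 3.28% and 2.83% of all genes, and the median was 0.11. *EXPA1* was at 102, 90.3, 92.5 and 109 CPM in XVE:EPFL4, against 189, 175, 176 and 140.4 CPM in WT (-0.79 ± 0.10, adjusted p = 0.0144). *EXPA8* was at 41.0, 48.3, 51.4 and 51.2 CPM in XVE:EPFL4, against 72.6, 71.3, 82.9 and 103 CPM in WT (-0.78 ± 0.13). Both differed from their uninduced fold changes, which were 0.03 for *EXPA1* and 0.56 for *EXPA8* (interaction -0.82, adjusted p = 0.00531, and -1.34, adjusted p = 0.00237). *EXPA3* fell by 0.55 ± 0.13 on the log2 scale. Of the list, 3 members were higher and 5 lower without WT replicate 4, against 11.4% and 14.8% of all genes.

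In the jasmonate list of 17 genes tested, 1 was higher and 3 lower, against 2.83% and 3.28% of all genes, with a median of -0.50. The 3 lower genes encode allene oxide cyclases or allene oxide synthase, and the 1 higher gene encodes a lipoxygenase. *AOC2* was at 181, 173, 206 and 161 CPM in XVE:EPFL4, against 225, 375, 290.2 and 320.2 CPM in WT (-0.74 ± 0.14), *AOC1* fell by 0.82 ± 0.20 and *AOS* by 0.50 ± 0.13 on the log2 scale. *LOX4*, a lipoxygenase gene, was at 34.9, 22.4, 21.2 and 27.3 CPM in XVE:EPFL4, against 15.6, 12.6, 13.8 and 15.3 CPM in WT (0.89 ± 0.16). All 3 of *AOC1*, *AOC2* and *AOS* were also lower without induction (-1.11, -0.77 and -0.38), where the list had 2 members higher and 7 lower, against 5.93% and 4.00% of all genes. Leaving WT replicate 4 out, 1 member was higher and 7 were lower, against 11.4% and 14.8% of all genes, the storage protein genes *VSP1* and *VSP2* among the 7. *MYC2* overlaps another annotated gene and had 0 counts in all 8 libraries, so it was not tested.

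The touch and early stress list, with calmodulin-like genes and stress-induced transcription factor genes, had 2 members higher and 1 lower of 16 tested, against 2.83% and 3.28% of all genes. *WRKY53* was at 19.4, 13.4, 14.9 and 20.5 CPM in XVE:EPFL4, against 11.7, 6.39, 7.27 and 6.43 CPM in WT (1.11 ± 0.21), and *WRKY33* had a log2 fold change of 0.84 ± 0.21. *DREB2A* was at 4.88, 7.41, 7.72 and 7.88 CPM in XVE:EPFL4, against 10.8, 10.9, 10.08 and 10.98 CPM in WT (-0.61 ± 0.15). The list stood further apart without induction, where 11 of 15 members were higher and 0 lower, against 5.93% and 4.00% of all genes, with a median of 1.33. At 3 h the median was 0.12, and it turned to -0.18 without WT replicate 4, where 5 members were higher and 4 lower, against 11.4% and 14.8% of all genes. The interaction test called 7 of 16 members, all with a lower log2 fold change at 3 h than without induction, including *WRKY53* (-1.18), *DREB2A* (-1.14), *ZAT12* (-2.31) and *ZAT10* (-2.39). The log2 fold change of *DREB2A* was -0.61 at 3 h and 0.52 without induction. Over all genes the interaction test called 1.59% in this direction and 0.472% in the other.

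Clock genes showed how far a single library reached. All 16 core clock genes tested had a negative log2 fold change, with a median of -0.44, but with all 8 libraries only *LNK2* was called. *LNK2*, a coactivator of the clock, was at 252, 283, 312 and 281 CPM in XVE:EPFL4, against 395, 438, 452 and 305 CPM in WT (-0.49 ± 0.12, adjusted p = 0.0481). *CCA1*, a morning-phased repressor at the centre of the clock, was at 81.0, 83.6, 84.8 and 75.0 CPM in XVE:EPFL4, against 144, 179, 181 and 43.4 CPM in WT. *PRR9* was at 22.3, 19.1, 18.1 and 20.6 CPM in XVE:EPFL4, against 41.6, 51.1, 51.2 and 8.99 CPM in WT. XVE:EPFL4 thus lay below WT replicates 1, 2 and 3 and above WT replicate 4 in both genes. Without WT replicate 4, 9 members were lower and 0 higher, against 14.8% and 11.4% of all genes, among them *CCA1* (-1.05), *LHY* (-1.07), *PRR9* (-1.26) and *RVE8* (-1.02). The opposite held for the evening genes *TOC1*, *LUX* and *ELF4*, for which WT replicate 4 was the highest of the 8 libraries. Their log2 fold changes were 0.11, 0.12 and 0.08 without it, and no call was made either way. Of the clock output genes, *RVE7* was called (-0.35 ± 0.09), and without WT replicate 4 the list had 2 higher and 7 lower of 9, against 11.4% and 14.8% of all genes. Without induction 1 core clock gene was lower and 0 were higher, against 4.00% and 5.93% of all genes.

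The lists that name the ER pathway and its tissues held few calls with all 8 libraries. Of 9 ER family receptors and coreceptors 0 were called, and the coreceptor kinase genes *SERK1* (0.25), *BAK1* (0.17) and *SERK2* (-0.18) had groups that did not overlap, as had 8.27% of all genes with XVE:EPFL4 above WT and 8.45% with XVE:EPFL4 below it. Of 8 genes of the YDA cascade 0 were called, and *MPK3* had the lowest adjusted p (0.43 ± 0.11, adjusted p = 0.0522). It was called without induction (1.05, adjusted p = 7.32e-05). Of 12 stomatal lineage genes 0 were called, with *SDD1*, a protease that limits stomatal density, at a log2 fold change of 0.50 (adjusted p = 0.0538) and *SCRM2*, a partner of the stomatal bHLH factors, at -0.26 (adjusted p = 0.0579). Each of these 3 lists had 2 calls without WT replicate 4, against 26.2% of all genes, *SCRM2*, *SDD1*, *MPK3*, *SERK2* and *ERL2* among them.

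Of 16 genes of the TDIF-PXY pathway and cambium, *BZR2* (AT1G19350, named *BES1* in the study) alone was called, against 6.11% of all genes. The same gene is the 1 member called lower in the brassinosteroid list. This brassinosteroid transcription factor gene was at 121, 115, 124 and 116 CPM in XVE:EPFL4, against 135, 145, 169 and 171 CPM in WT (-0.38 ± 0.09). The list median was 0.29 with all 8 libraries and 0.13 without WT replicate 4. Of 7 phloem genes *SEOR1*, a structural protein of sieve elements, was at 52.6, 48.7, 51.5 and 48.9 CPM in XVE:EPFL4, against 43.9, 32.2, 37.7 and 32.2 CPM in WT (0.47 ± 0.10). Of 20 xylem and secondary wall genes 0 were called with all 8 libraries. Without WT replicate 4, 1 was higher and 1 lower, against 11.4% and 14.8% of all genes.

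Among the remaining hormone and nutrient lists, calls with all 8 libraries were 0 or 1 of each list in either direction, and most were 1 gene. Over all genes 2.83% were called higher and 3.28% lower. *ARR8*, a type-A response regulator of cytokinin signalling, was at 21.5, 23.47, 24.7 and 21.5 CPM in XVE:EPFL4, against 29.9, 37.0, 36.0 and 31.4 CPM in WT (-0.55 ± 0.09). *MYB51*, a regulator of indole glucosinolate synthesis, was at 18.8, 18.3, 22.4 and 23.4 CPM in XVE:EPFL4, against 11.5, 7.86, 8.09 and 11.8 CPM in WT (1.09 ± 0.16). It was also higher without induction (0.85, adjusted p = 0.00152). *MYB12*, a regulator of flavonol synthesis, was lower (-0.92 ± 0.23, adjusted p = 0.0495). *GASA1* of the gibberellin list (-0.79), the auxin repressor gene *IAA17* (-0.44), the shade regulator gene *PIF7* (-0.61), the copper/zinc superoxide dismutase gene *CSD2* (-0.66) and the ribonuclease gene *RNS1* (-1.02) were lower, and *ACS11* of ethylene synthesis was higher (0.98). Of these, *GASA1* (-0.71) and *CSD2* (-1.02) were also lower without induction, whereas *PIF7* was higher there (0.40). The difference between the 3 h and uninduced fold changes was called for *PIF7* (-1.01, adjusted p = 0.00878) and for *RNS1* (-2.67, adjusted p = 0.0231). In the iron deficiency, light-harvesting LHCB, nitrate and small heat shock protein lists 0 were called with all 8 libraries.

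Some of these lists changed in count without WT replicate 4. There 8 of 15 iron deficiency genes, 5 of 11 LHCB genes, 5 of 11 flavonoid genes, 5 of 12 glucosinolate genes, 4 of 9 type-A ARR genes and 3 of 9 ferritin and copper genes were lower, against 14.8% of all genes. Higher and lower calls there were 2 and 1 of 7 phloem genes, 3 and 3 of 16 ethylene genes, 2 and 1 of 14 nitrate genes, 1 and 2 of 21 Aux/IAA and GH3 genes, 1 and 2 of 19 gibberellin genes and 1 and 2 of 11 brassinosteroid genes, against 11.4% and 14.8% of all genes. *BHLH100*, a regulator of iron uptake, was at 0.0417, 0.250, 0 and 0.101 CPM in XVE:EPFL4, against 3.37, 8.24, 6.19 and 0.0569 CPM in WT. It was too low for a test with all 8 libraries, and WT replicate 4 lay within the range of XVE:EPFL4. Without that library it passed the filter on low counts only through the WT libraries where it was high. Its call, counted among the 8 iron deficiency genes, is therefore no support.

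The tissue markers were present in both groups. The summed CPM of 6 guard cell markers was 2155 to 2394 in XVE:EPFL4 and 1584 to 2730.1 in WT, with WT replicate 4 the lowest. For 9 root markers it was 2782 to 3364 in XVE:EPFL4 and 2820 to 3714 in WT, and for 8 shoot markers 29317 to 30461 in XVE:EPFL4 and 30521 to 35509 in WT. The shoot sums did not overlap, and all 4 XVE:EPFL4 libraries were lower. Without WT replicate 4 the sums of all 3 lists were lower in XVE:EPFL4 than in the lowest remaining WT library. No marker was under 1 CPM on average. The median log2 fold change was -0.21 for the root markers, of which 6 of 9 were negative, and -0.14 for the shoot markers, of which 6 of 8 were negative. With that library left out, 1 root marker was called higher and 3 lower, 4 shoot markers lower and 0 higher, and 3 guard cell markers lower and 0 higher, against 11.4% of all genes higher and 14.8% lower. Of single markers, *CER6*, of wax synthesis in the shoot epidermis, was lower (-0.58 ± 0.10) and *COBL9*, of root hairs, was higher (0.47 ± 0.12). The part of tissue shares in the other results was not tested.

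**Figure D5:**
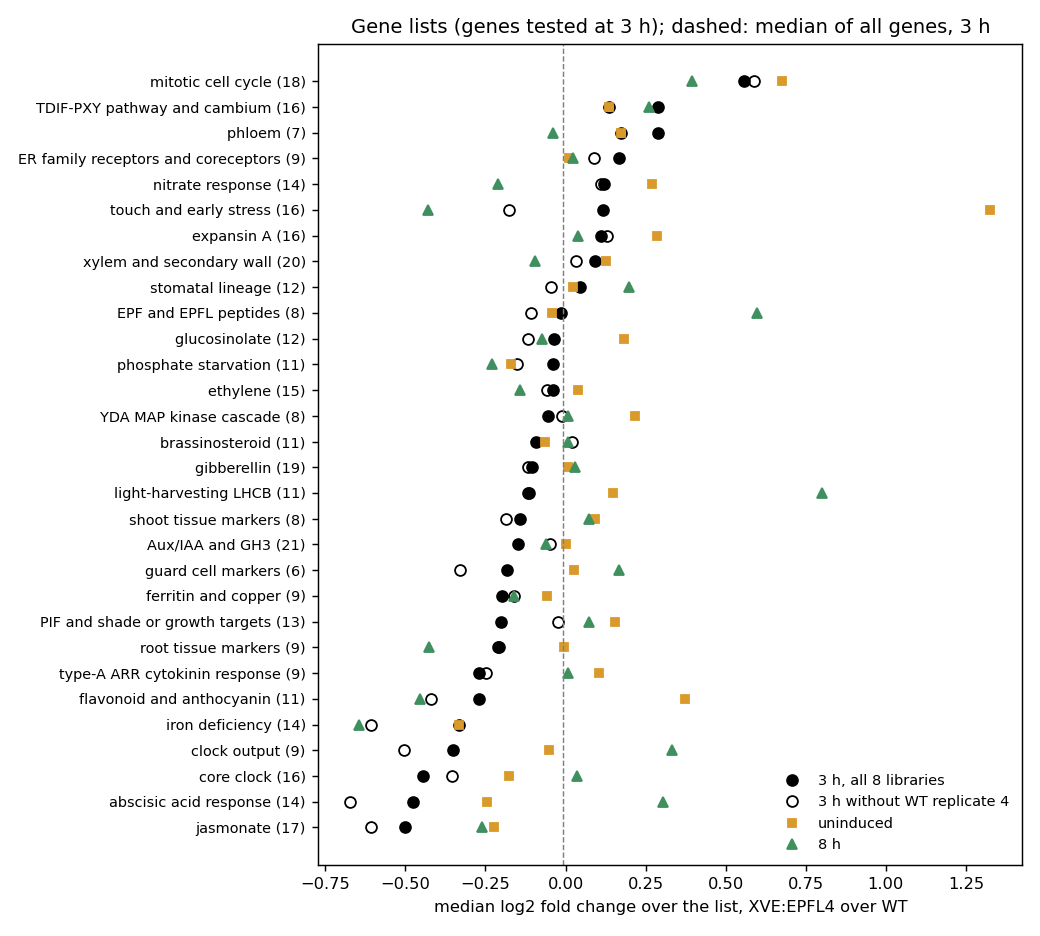
Median log2 fold change, XVE:EPFL4 over WT, of each gene list with at least 5 genes tested at 3 h (number in brackets): filled circles for 3 h with all 8 libraries, open circles for 3 h without WT replicate 4, squares for the uninduced and triangles for the 8 h libraries; the dashed line is the median of all genes at 3 h. The mitotic list lies at 0.56, 0.59, 0.68 and 0.40, and the abscisic acid list at -0.48, -0.67, -0.25 and 0.30.

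The 10 largest rises and 10 largest falls among genes called only without WT replicate 4 are given as a description of what that library decides. The defensin-like gene AT1G13609 was at 0.876, 3.87, 1.14 and 0.455 CPM in XVE:EPFL4, against 18.7, 33.3, 28.6 and 0 CPM in WT. *BT2*, a BTB scaffold gene known for its response to nitrate, light and sugar, was at 182, 177, 208 and 219 CPM in XVE:EPFL4, against 56.6, 62.4, 56.4 and 532 CPM in WT. By the naming rule the other 9 largest rises of this kind were AT1G50040 (log2 fold change without WT replicate 4 of 2.83), AT4G09110 (2.31), the chlorophyll synthesis gene *PORA* (2.13), the potassium transporter gene *HAK5* (2.04), *SOB5* (1.96), AT1G15125 (1.94), AT1G02660 (1.83), AT3G19680 (1.73) and AT3G47050 (1.73). Beside *CBF2*, *BHLH100* (-5.84) and AT1G13609 (-4.04), the largest falls were AT5G21960 (-3.70), AT4G18422 (-3.49), AT4G27654 (-3.25), AT2G38240 (-2.84), AT4G27657 (-2.83), AT1G24580 (-2.80) and AT3G09450 (-2.77). AT1G15125 changed sign with the library, at -0.33 with it and 1.94 without it. *BHLH100* entered the test only through the WT libraries where it was high. The same holds for AT4G27654, at 0.337 to 0.374 CPM in XVE:EPFL4 apart from replicate 1 (0.709 CPM). *PORA* (0.109 to 0.256 CPM), *HAK5* (0.379 to 0.434 CPM) and AT3G47050 (0.358 to 0.434 CPM) were too low in WT replicates 1, 2 and 3. These passed only through XVE:EPFL4, where they were high. The calls of all these genes are therefore no support, and the other genes given here were not checked for this.

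How much of the 3 h difference was there without induction was asked with the uninduced libraries, which share none with the 3 h comparison. The sources used here do not say whether uninduced seedlings of this line were moved to mock plates, or when they were collected. Uninduced, 1174 genes were higher and 791 lower in XVE:EPFL4 of 19795 tested (9.93% in all), and 7.85% lay above WT and 8.11% below it without overlap. This count fell to 1166 without WT replicate 3, 1286 without WT replicate 4, 1250 without XVE:EPFL4 replicate 1 and 1186 without XVE:EPFL4 replicate 2. Of 1206 genes called at 3 h and tested in both, 270 were called uninduced with the same sign, which is 22.4% of the 3 h calls and 13.9% of the 1937 uninduced calls, and 19 were called with the opposite sign. Called uninduced or not, 939 of the 1206 (77.9%) had the same sign there, against 61.3% of all genes. When WT replicate 4 at 3 h was left out, 700 of 5202 genes were called in both with the same sign, which is 13.5% of the 3 h calls and 36.1% of the 1941 uninduced calls, and 187 with the opposite sign. Called uninduced or not, 3558 of these 5202 (68.4%) had the same sign there, against 59.2% of all genes. The interaction test called 419 of 20326 genes (2.06%), with the 3 h fold change higher in 96 and lower in 323. That count was 2016 without WT replicate 4 at 3 h. It was 216 to 251 without any of the 4 XVE:EPFL4 replicates at 3 h, 235 without WT replicate 2 at 3 h, and 188, 244, 253, 204 and 262 without uninduced WT replicates 2, 3 and 4 and uninduced XVE:EPFL4 replicates 1 and 2.

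After 8 h of estradiol *EPFL4* alone was called of 19868 genes by edgeR (0.00503%), with 1358 genes at an unadjusted p under 0.05 and 63 genes called by DESeq2. Of 1210 genes called at 3 h and tested at 8 h, 787 (65.0%) had the same sign at both times, against 55.1% of all genes. Differences between the 3 h and 8 h fold changes were not tested.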

How the data were processed

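RNA was sequenced by the authors from seedlings of 9 groups in 35 libraries. Per the labels and the study's methods, paired-end reads were mapped with STAR 2.7.11a to TAIR10, and each deposited file holds a raw count for each of 32833 genes. The strand setting, trimming and duplicate handling are not given in the sources used here. The study's methods call the repeats of its *ER* induction biological, with several seedlings pooled in each, but do not describe the XVE:EPFL4 line, so p-values measure the spread between libraries, which may be technical. No pair of libraries of a group at 3 h agreed within sampling noise (chi-square per degree of freedom 3.53 or more), so all were counted.

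The tests used R 4.3.3 and edgeR 4.0.16 (filterByExpr with a minimum count of 10 and a minimum total of 15, TMM, glmQLFit, glmQLFTest, Benjamini-Hochberg adjustment, threshold 0.05), fitted on the groups of each comparison, with DESeq2 1.42.0 as an alternative. The SE of a log2 fold change is its size over the square root of F. TMM factors from the 35 libraries of the series scaled CPM. A prior count of 2 was added for log2 CPM. The fits were also run on simulated counts in which no library was set apart, and that outcome is not given here. The genes named were the peptides and receptors given singly, the 10 largest rises and 10 largest falls at 3 h where the groups did not overlap, the same for genes called only without WT replicate 4, and up to 4 members of each list by lowest adjusted p. Further members, and the genes called in every fit, were named after their values were seen. The values of 1 gene are not reported here. Members and lists were chosen with earlier results of these data known. Identifiers were matched to RefSeq TAIR10.1 (32548 of 32833), which gave names, coordinates and promoter windows. The alternatives were DESeq2, its size factors, no filter on low counts, a joint fit of 35 libraries, a replicate block, a 2-fold limit and leaving out libraries.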

Additional observations from a re-analysis of the deposited data

Results flagged for a closer look

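In 41 of 394 groups of 4 libraries examined at 3 h, over the genes named, 1 library stood apart from the other 3 by Dixon's 95% limit. Chance gives about 1 in 20 such groups. In genes chosen as called only without WT replicate 4, a choice that sets this library apart, it was 11 of 40 groups. The other 354 groups also include genes named after their values were seen, *ABI1* and *TOC1* among them, so they do not measure an excess over chance. Of these 354, 30 had a library apart, and WT replicate 4 was that library in 18. In WT replicate 4 these were *TGG2* at 262 CPM, the xylem genes *IRX5* at 18.1 and *XCP2* at 39.3 CPM, the phloem regulator gene *APL* at 12.4 CPM, the clock genes *PRR5* at 22.6 and *FKF1* at 4.84 CPM, the auxin genes *YUC8* at 8.65 and *IAA1* at 23.1 CPM, and the ethylene response gene *ERF2* at 32.5 CPM. The same library stood apart in the heat shock genes *HSP23.6* at 12.5, *HSP17.6A* at 20.15 and *HSP18.2* at 7.17 CPM, and in *G6PD3* at 19.8, *EXPA3* at 89.8, *CHI* at 39.4 and *MYB34* at 46.6 CPM. It also stood apart in *ABI1* at 50.5 and *TOC1* at 51.6 CPM. Of the genes chosen for their dependence on it, WT replicate 4 stood apart in *BT2* at 532, AT3G19680 at 129, AT1G02660 at 96.4, AT1G15125 at 66.8, AT1G50040 at 28.3, *SOB5* at 10.19, *HAK5* at 2.16, *PORA* at 1.54 and AT3G47050 at 0.968 CPM, and XVE:EPFL4 replicate 1 in AT4G27657 at 3.04 and AT4G27654 at 0.709 CPM. WT replicate 1 stood apart in *SUC3* at 24.1, AT4G19520 at 21.9 and *WRKY53* at 11.7 CPM. In XVE:EPFL4, replicate 1 stood apart in *LTP3* at 36.7, *ERL1* at 5.46, AT1G09500 at 5.71 and *DREB2A* at 4.88 CPM, replicate 3 in AT4G22517 at 15.4 and *HSP23.6* at 0.633 CPM, and replicate 4 in *TOC1* at 33.5, *ZAT12* at 18.7 and *CDKB1;2* at 5.30 CPM.

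For 24 genes named the difference between XVE:EPFL4 and WT at 3 h was itself different from that without induction (edgeR interaction test). Over all genes this test called 2.06%, with 0.472% higher and 1.59% lower at 3 h. Many of these 24 were named for their 3 h values, in libraries that the test also uses, so the count is no separate support. The 3 h minus uninduced difference in log2 fold change was 9.24 for *EPFL4*, 0.96 for *PIF3* and 0.93 for the sulpholipid synthesis gene *SQD1*. It was -3.06 for *COR15A*, -2.71 for AT1G15010, -2.67 for *RNS1*, -1.34 for *EXPA8*, -1.18 for *WRKY53*, -1.14 for *DREB2A*, -1.01 for *PIF7*, -0.82 for *EXPA1*, -0.67 for the chloroplast regulator gene *GLK1* and -0.62 for the cytokinin response gene *ARR4*. Of the genes named after their values were seen, it was -2.39 for *ZAT10*, -2.31 for *ZAT12*, -1.90 for *NCED3*, -1.06 for *MAPKKK14*, -1.01 for *THI2.2*, -0.61 for AT1G52100 and -0.57 for *cPT4*. Of those called only without WT replicate 4, it was 2.32 for AT3G19680, -4.90 for *CBF2*, -4.83 for AT4G27654 and -4.22 for AT4G27657.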

How the results depend on the processing

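The number of genes called at 3 h was 2323 by DESeq2, 306 with all 35 libraries in 1 fit, 92 with a 2-fold limit and 12 to 5243 with 1 library left out, and 10 genes were called in every one of those fits. Leaving out a further library after WT replicate 4, and asking for a call in every fit, were chosen after seeing the data. Leaving out replicate number 4 of both groups gave 4239. Without induction the count was 396 with all 35 libraries in 1 fit and 1166 to 1879 with 1 library left out. At 8 h it was 63 by DESeq2 and 72 with all 35 libraries in 1 fit. The interaction count was 851 by DESeq2, 16 with all 35 libraries in 1 fit and 188 to 2016 with 1 library left out. The causes were not tested. Replicate numbers were not used as a pairing in the main fits. Deviations of same-numbered libraries correlated weakly, at 0.101, 0.0941, 0.00660 and 0.154, and 2 of 4 correlated best with their own number. These few values cannot decide whether same-numbered libraries shared handling. With the replicate number as a block 382 genes were called at 3 h, 1435 uninduced, 1 at 8 h and 351 for the interaction. AT1G15125 changed sign, from -0.33 with all libraries, to 1.94 without WT replicate 4 and 1.79 without number 4 of both groups, and lay at -0.69 without WT replicate 2. No other gene named by rule changed sign with a call. *EPFL4* was called in every fit.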

Other observations

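Gene families grouped by their RefSeq product names were looked at after the values were seen, so they are a description with no test. Over all genes 2.83% were higher and 3.28% lower at 3 h, 5.93% higher and 4.00% lower without induction, and 11.4% higher and 14.8% lower at 3 h without WT replicate 4. Of 27 kinesin genes tested, which encode microtubule motors, 12 were higher in XVE:EPFL4 at 3 h and 0 lower, 8 were higher without induction, and 13 were higher and 1 lower at 3 h without WT replicate 4. Of 153 genes annotated as disease resistance proteins, 16 were higher and 0 lower at 3 h and 29 were higher and 0 lower without induction, and the median at 8 h was -0.29. Without WT replicate 4 this family had 30 higher and 20 lower. Of 308 ribosomal protein genes, 31 were higher and 1 lower, against 186 and 4 without WT replicate 4 and 1 and 1 without induction.

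Of 13 chaperonin genes of the TCP-1/cpn60 family 4 were higher and 0 lower at 3 h, and 10 were higher and 0 lower without WT replicate 4. Of 38 photosystem subunit genes 2 were lower and 0 higher, and 17 had XVE:EPFL4 below WT without overlap, against 8.45% of all genes. SAUR-like genes had 4 lower and 0 higher of 55, and their median was -0.31 with all libraries and 0.07 without WT replicate 4.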
